A study of Mus musculus with 12 samples.

Results

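Thalamic excitatory neurons, which relay sensory and limbic signals to the cortex, were found among the nuclei that had been isolated from the left hippocampus of female mice. Of 184957 nuclei with 500 to 10000 detected genes, 14949 were chosen by their raw counts of unique molecular identifiers (UMIs), with at least 1 UMI of Slc17a6, at least 2 of Tcf7l2, at least 1 of Prkcd, Lef1 or Ntng1, fewer than 2 of Mobp and none of Gad1, Gad2, Gpr151, Tac2 or Nr5a1. The nuclei came from 12 libraries of sorted nuclei, each read with 3′ single-nucleus RNA sequencing. There were 3 libraries of 3xTg-AD mice at 6 months (replicates 1, 5 and 9), 3 of WT littermates at 6 months (3, 7 and 11), 3 of 3xTg-AD mice at 12 months (2, 6 and 10) and 3 of WT littermates at 12 months (4, 8 and 12). 3xTg-AD mice carry the human transgenes APPSwe and mutant tau, both under the Thy1 promoter, which is active in neurons, on a mixed B6;129 background. Per the study's methods the 12 libraries came from 12 mice, and p-values measure the spread between these libraries.

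The thalamus lies under the hippocampus and is no part of it. Relay neurons of the thalamus release glutamate with the vesicular transporter encoded by Slc17a6, whereas most neurons of the hippocampus and cortex use Slc17a7. Tcf7l2 and Lef1 encode transcription factors that act at the end of the Wnt/β-catenin pathway, and in the adult brain Tcf7l2 keeps thalamic neurons in their identity. Prkcd encodes a protein kinase C isoform of many sensory relay nuclei, and Ntng1 encodes netrin-G1, an adhesion protein on thalamocortical axons.

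The number of members per library was 1688, 1271 and 1395 in 6-month 3xTg-AD mice, 1119, 1106 and 909 in 6-month WT mice, 810, 1017 and 1546 in 12-month 3xTg-AD mice, and 1754, 1124 and 1210 in 12-month WT mice. The summed UMIs of the members ran from 9299835 to 22267799 per library, and the median per member from 9512 to 14121, above the 4345 to 6698.5 of all nuclei. Of the member barcodes, 23 occurred in members of more than 1 library, with at most 3 in any pair of libraries.

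Levels as CPM, the UMIs of a gene in a class of nuclei scaled to a fixed total, were used to check the label. The 12653 other Slc17a6 nuclei of the same libraries, which had no Tcf7l2, Gad1 or Gad2 UMI, and 7536 telencephalic excitatory nuclei, with Slc17a7 and no Slc17a6, served as the comparison. Within a gene, Ntng1 had a mean of 3314 CPM in the members with a range of 2989 to 3948 over the libraries, against 603 CPM in other Slc17a6 nuclei. Lef1 had 515 against 52.5 CPM, and Prkcd 251 against 5.11 CPM. Telencephalic nuclei had 3.40 CPM of Lef1 and 8.48 CPM of Prkcd. These differences were set in part by the clauses on the 5 genes, and the comparisons of levels between classes in this paragraph and the next are a description with no test.

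Some genes that the choice did not use also set the members apart. Rora, a nuclear receptor of thalamic relay neurons, was found in 99.7% of members (median of the libraries) and had 3316 CPM against 1579 in other Slc17a6 nuclei. Foxp2, a transcription factor of thalamic and cortical layer 6 neurons, had 477 against 212 CPM, and Cacna1g, the T-type calcium channel that carries thalamic bursts, 198 against 78.8 CPM. Grin2c, the NMDA receptor subunit GluN2C, had 74.5 against 4.28 CPM. Gabra4 and Gabrd, subunits of the extrasynaptic GABA-A receptor that gives relay neurons their tonic inhibition, had 442 against 68.8 CPM and 70.3 against 5.04 CPM. The lists of such channels and receptors went both ways. Of 13 channels of burst firing of at least 20 CPM, 5 were higher and 5 lower in the members in every library. The counts were 8 and 8 of 23 glutamate receptors, and 5 and 6 of 14 GABA receptors. Of all 7374 genes of that level, 1292 were higher and 3138 lower in every library. Of the thalamic transcription factors of at least 20 CPM that the choice did not use, Etv1, Foxp2, Lhx2, Lhx9, Rora, Zic1 and Zic4 were higher in the members in every library, with median log2 ratios of 0.92 for Etv1 to 2.49 for Zic1. Mef2c was higher in 11 of 12 libraries at 0.44, and Nr2f2 was lower in every library at -0.34. The median over all 7374 genes of that level was -0.13. The largest ratios were those of Abhd12b at a log2 ratio of 5.53, Synpo2 at 5.33 and Plekhg1 at 5.24. At the other end stood Sim1 at -4.44, Avp at -4.23, Lmx1a at -3.71 and Oxt at -3.34, which are genes of hypothalamic neurons. The 12 thalamic transcription factors, Tcf7l2 and Lef1 among them, summed to 5001 to 6179 CPM in the members. They summed to 1780 to 2400 CPM in other Slc17a6 nuclei. In 493 habenular nuclei, chosen with Tcf7l2, they summed to 3228 to 4565 CPM, nearer to the members.

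**Figure D1:**
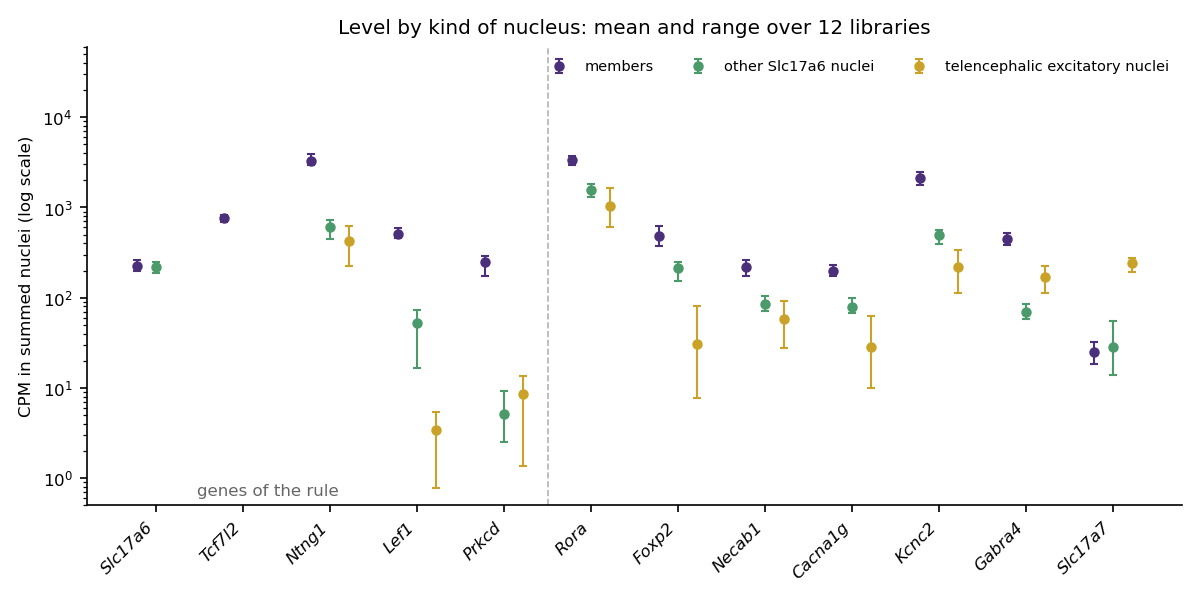
Level of 12 genes in CPM on a log axis, in members, other Slc17a6 nuclei and telencephalic excitatory nuclei, with points at the mean and bars over the range of the 12 libraries. The 5 genes left of the dashed line are those of the choice, and points at 0 CPM are not drawn. Rora, Foxp2, Necab1, Cacna1g, Kcnc2 and Gabra4 were higher in the members than in both other classes, and Slc17a7 had 24.9 CPM in the members against 240 CPM in telencephalic nuclei.

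Markers of other cell types were then summed. Over the 12 libraries, the 7 oligodendrocyte markers summed to 48.8 to 154 CPM in the members, against 17384 to 20512 CPM in oligodendrocyte nuclei. The 10 hypothalamic markers summed to 5.18 to 18.4 CPM, the 8 vascular markers to 10.4 to 28.3 CPM, and the 6 markers of choroid plexus to 1.999 to 71.5 CPM. The 7 pretectal and tectal markers summed to 11.4 to 43.8 CPM, a range that was not below the 16.2 to 37.0 CPM of other Slc17a6 nuclei. The 10 telencephalic markers summed to 126 to 167 CPM, against 433 to 857 CPM in telencephalic nuclei and 74.7 to 214 CPM in other Slc17a6 nuclei. The 9 habenular markers, among which Gpr151 and Tac2 were excluded by the choice, summed to 55.7 to 208 CPM, against 264 to 6359 CPM in habenular nuclei and 115 to 194 CPM in other Slc17a6 nuclei. The astrocyte, oligodendrocyte precursor and striatal lists summed to 623 to 905, 1309 to 1698 and 1035 to 1918 CPM. Other Slc17a6 nuclei had 596 to 932, 1099 to 1489 and 697 to 1219 CPM of the same lists. These lists hold genes such as Gpc5 and Pde10a, and how much of the sums came from the members themselves was not tested. The labels say hippocampus, and the leading genes are those of the thalamus. No clustering, doublet caller or removal of free RNA was applied, so that a nucleus was placed by its own UMIs alone.

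The limits on UMIs cut through a range. Within the nuclei that met every other clause, 8418 had no Tcf7l2 UMI and held 7.08 CPM of Prkcd, 73.2 of Lef1 and 860 of Ntng1. Another 1368 had 1 Tcf7l2 UMI, just outside the limit, with 48.7 CPM of Prkcd, 174 of Lef1 and 1127 of Ntng1. The 1230 just inside, with 2, had 102, 250 and 1664 CPM, and the 13719 with 3 or more had 254, 528 and 3398 CPM. The levels of these 3 genes thus went up at each step. The median UMIs were 7971, 6728.5, 7243.5 and 11313 in the same order, lowest with 1 Tcf7l2 UMI and highest with 3 or more. The 3 genes are part of the choice, and the part of depth in their rise was not tested. At the clause for Slc17a6, 7861 nuclei with no UMI of it, and a median of 5104 UMIs, met all other clauses and had 195 CPM of Prkcd.

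The members fell into sets by which of Prkcd, Lef1 and Ntng1 they held. All of these genes were found together in 44.5% of members, with 36.7% to 50.7% in the 12 libraries. Ntng1 alone was found in 26.0%, and Lef1 with Ntng1 but no Prkcd in 25.7%. Prkcd with Ntng1 made up 1.67%, Lef1 alone 1.56%, Prkcd alone 0.475%, and Prkcd with Lef1 0.0870%. A count of 0 in a nucleus is no proof of absence. The nuclei that held all of them had the larger depth, with a median of 10281 to 17906 UMIs in the libraries against 8220 to 10329.5 with Ntng1 alone. Prkcd was found in 5.06% of telencephalic nuclei in the median library, at 6735.5 to 11410.5 median UMIs per library, and in 48.5% of members. With nuclei of at least 2000 UMIs thinned to that number, Prkcd was found in 27.8% of members and 1.39% of telencephalic nuclei. Since Prkcd could admit a member, its percent in members was favoured by the choice, before and after thinning.

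Members with Prkcd differed from members without it in many genes besides. The 2 sets were compared as a description, since Prkcd was used to choose members. Of 7142 genes of at least 20 CPM in either set, 1245 were higher with Prkcd in all 12 libraries and 2705 were lower in all 12, and the median log2 ratio was -0.12. Abhd12b had 308 against 16.2 CPM. Adarb2, a relative of the RNA editing enzymes, had 4042 against 417 CPM, with a median log2 ratio of 3.27 and a range of 3.04 to 3.45. The endocytic adaptor Dab2, the prostaglandin transporter Slco2a1 and the Wnt receptor Fzd6 had log2 ratios of 3.31, 3.16 and 2.81. Lower with Prkcd were the transcription factors Tfap2d and Ebf2, with 2.10 against 35.8 CPM and 3.08 against 32.7 CPM. The extracellular glycoprotein gene Reln had 7.83 against 83.3 CPM. Among marker lists of other cell types, the pretectal and tectal list had 1 gene of at least 20 CPM, at the log2 ratio of Tfap2d, -3.67. The habenular and GABAergic lists had 1 each, at -2.90 and -1.84, and all of these were lower with Prkcd in every library. Of 2 telencephalic markers at that level, 1 was higher in every library, and their median was 1.17.

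The signalling genes of the lists split in the same comparison. Grin2c had 120 CPM with Prkcd and 20.7 without, a log2 ratio of 2.55. Gabrd had 111 against 22.8 CPM, and Slc17a7 39.6 against 7.66 CPM. In the other direction, the metabotropic glutamate receptor Grm8 had 108 against 599 CPM, and the cannabinoid receptor gene Cnr1 3.10 against 23.4 CPM. Of 15 receptors for neuromodulators and peptides at that level, 10 were lower with Prkcd in every library and 4 were higher, among which were the adrenergic receptors Adra1b and Adrb1. Of 32 genes of axon guidance and adhesion, 16 were lower and 8 higher, and their median log2 ratio was -0.32. These counts stand beside 2705 lower and 1245 higher in every library of all 7142 genes, whose median was -0.12. Rora and Ntng1 were found on both sides, with 4104 against 2387 CPM and 4144 against 2343 CPM. Tnnt1, which marks first-order relay nuclei, had 18.4 against 2.29 CPM. Calb2, which marks midline nuclei, had 7.31 against 23.9 CPM.

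**Figure D2:**
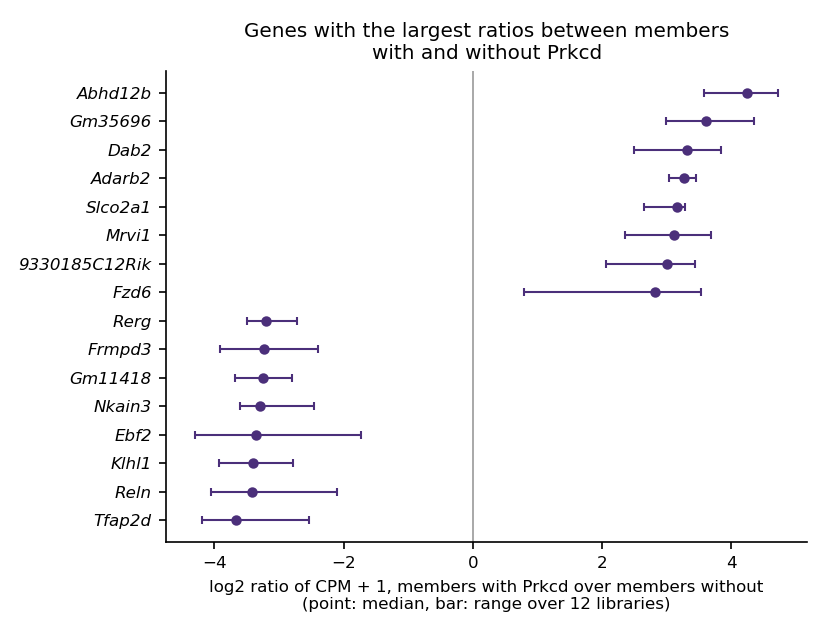
Log2 ratio of CPM + 1 between members with and without Prkcd for the 8 genes with the largest median ratio in each direction, with points at the median and bars over the range of the 12 libraries. Every bar stays on its side of 0, from Abhd12b at 4.24 to Tfap2d at -3.67.

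The share of thalamic neurons in each library came first, and more thalamus taken in dissection and more neurons in the tissue cannot be told apart. They made up 11.9%, 8.03% and 7.81% of nuclei in 6-month 3xTg-AD mice and 9.23%, 6.92% and 5.76% in 6-month WT mice, and the groups overlapped. At 12 months they made up 5.38%, 6.47% and 7.80% in 3xTg-AD mice and 9.73%, 8.50% and 10.7% in WT mice, and every 3xTg-AD library was below every WT library. The difference at 12 months was -3.07 percentage points (6.55 ± 1.22 against 9.63 ± 1.09, SD, n = 3) with a two-sided p of 0.1 by exact permutation, the smallest that 3 against 3 libraries can give (adjusted p = 0.438 over 35 such tests). The difference at 6 months was 1.95 points (exact permutation p = 0.4). The change of the genotype difference between the ages, -5.02 points, had a p of 0.03 by exact permutation (adjusted p = 0.306). When nuclei were thinned to 2000 UMIs and the 1062 to 4234 nuclei per library below that number were left out of the total, fewer met the limits, and the shares of the nuclei that stayed at 12 months were 1.31%, 1.61% and 1.98% in 3xTg-AD mice and 2.74%, 2.07% and 1.82% in WT mice. The groups then overlapped, and the difference of -0.575 points stands against these lower levels.

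Among nuclei with Slc17a6, without Gad1 or Gad2 and with fewer than 2 Mobp UMIs, the thalamic neurons made up 39.5% to 52.6%. At 12 months the 3xTg-AD libraries had 39.5%, 48.0% and 50.1% and the WT libraries 50.5%, 51.1% and 50.9%, and the groups did not overlap, although 2 of the 3xTg-AD libraries lay close to the WT libraries. The difference was -4.96 points (exact permutation p = 0.1, adjusted p = 0.438), and -1.78 points without 3xTg-AD replicate 2, which had the lowest share. Without any other 1 library it went as far as -7.05 points. After thinning, the shares were 17.3%, 23.0% and 21.7% against 22.6%, 22.5% and 18.7%, which overlapped, with a difference of -0.615 points.

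The make-up of the members was compared in the same way. Prkcd was found in 38.9%, 42.6% and 41.2% of members of the 6-month 3xTg-AD mice and in 50.3%, 47.7% and 44.3% of the 6-month WT mice. The 6-month groups did not overlap, at 40.9% ± 1.88 against 47.5% ± 3.00 (SD, n = 3, exact permutation p = 0.1, adjusted p = 0.438). At 12 months the values were 49.3% ± 1.10 and 50.7% ± 2.29 and overlapped. Over both genotypes, the percent with Prkcd was 5.80 points higher at 12 than at 6 months (exact permutation p = 0.0152, adjusted p = 0.265). Prkcd was 1 of 3 genes that could admit a nucleus, and its percent was in part set by the choice. Its percents and their p-values are thus a description.

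Tnnt1 was not used in the choice. It was found in 8.18%, 8.42% and 7.96% of members of 6-month 3xTg-AD mice and in 13.8%, 11.3% and 10.5% of 6-month WT mice, and in 8.77%, 8.16% and 11.1% at 12 months in 3xTg-AD mice against 10.9%, 12.1% and 13.2% in WT mice. The 6-month groups did not overlap and the 12-month groups did. Over both ages the difference was -3.21 points (exact permutation p = 0.00649, adjusted p = 0.227), and telencephalic nuclei held Tnnt1 in 0.161% in the median library. Thinned to 2000 UMIs, Tnnt1 was found in 1.48% to 2.28% of 6-month 3xTg-AD and 2.06% to 2.87% of 6-month WT members, a difference of -0.626 points, and in 0.867% to 2.33% against 2.29% to 2.76% at 12 months, a difference of -0.970 points. The groups overlapped at both ages after thinning. The percent with Calb2 and with Necab1, a calcium-binding protein of higher-order nuclei, and the median UMIs per member gave exact permutation p of 0.310 or more in all comparisons. None of the 35 tests had an adjusted p under 0.05.

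**Figure D3:**
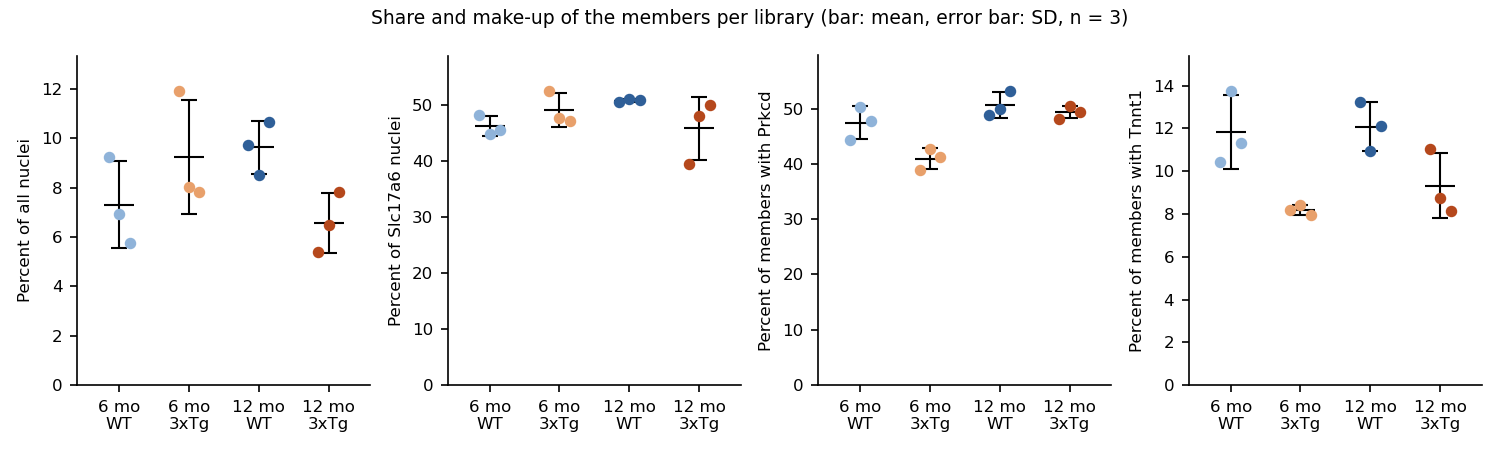
Members as a percent of all nuclei and of Slc17a6 nuclei, and the percent of members with Prkcd and with Tnnt1, with 1 point per library, the mean as a bar and the SD as an error bar (n = 3 per group). In the 12-month groups the 3xTg-AD points lie below the WT points in both shares, and in the 6-month groups the 3xTg-AD points lie below the WT points for Prkcd and Tnnt1.

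UMIs were then summed over the members of each library, and 3xTg-AD mice were compared with WT mice with edgeR. Called genes had a Benjamini-Hochberg adjusted p under 0.05 and moved by more than 0.2 on the log2 scale in either direction. The ± on a log2 fold change is its standard error, worked out from the F statistic of the fit, and not an SD. At 6 months, 54 genes were higher and 123 lower in 3xTg-AD mice, which is 1.1% of 16157 genes tested. At 12 months, 47 were higher and 109 lower, which is 0.965% of 16169. Over both ages, with age as a term, 159 were higher and 373 lower, which is 3.22% of 16511. Of the calls at each age, 48 were shared, 27.1% of those at 6 months and 30.8% of those at 12 months, and 47 of the 48 had the same direction. In other Slc17a6 nuclei, 133 of 15902 genes tested were called at 6 months, 108 of 15809 at 12 months and 271 of 16191 over both ages. The median log2 fold change of all genes in the members was -0.01 over both ages.

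The count in members at 12 months turned on single libraries. Without 12-month WT replicate 4 there were 605 calls, 330 of them higher, and without 12-month 3xTg-AD replicates 2, 6 or 10 there were 45, 43 or 55. At 6 months, 100 to 110 calls remained in number without 3xTg-AD replicate 1, 5 or 9. Over both ages, 346 were called without 12-month 3xTg-AD replicate 2, and 268 in members with at most 1 UMI of 10 genes of other lineages, 224 of which were among the 532.

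The mouse genes App, Mapt and Thy1 were not called at either age or over both. App had 601 to 632 CPM in 6-month WT mice and 664 to 687 CPM in 6-month 3xTg-AD mice, groups that did not overlap, with a log2 fold change of 0.18 ± 0.07 (adjusted p = 0.37). Its log2 fold change at 12 months was -0.02 ± 0.09. Mapt differed by -0.04 ± 0.05 and Thy1 by 0.11 ± 0.07 over both ages. Counts were made against the mouse genome, and human transcripts of the transgenes were not analysed here. No gene was called among 5 peptidases that degrade amyloid, 5 VPS10 sorting receptors or 15 tau kinases and phosphatase subunits. Of all genes, 1.1% were called at 6 months, 0.965% at 12 months and 3.22% over both ages. At those shares, a lack of calls in lists this short says little about these genes. The medians of the peptidase, VPS10 and tau lists over both ages were -0.06, -0.04 and 0.02.

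The gene with the smallest adjusted p among those that rose was Rnf152, a ubiquitin ligase of the lysosome (chromosome 1, 105276914 to 105356710). Its level was 163, 146 and 132 CPM in 6-month WT mice and 413, 490 and 514 CPM in 6-month 3xTg-AD mice. At the later age it was 204, 177 and 144 CPM against 546, 456 and 499 CPM. The genotypes did not overlap, and the log2 fold change was 1.64 ± 0.10 over both ages (adjusted p = 6.5e-08). It was 2.01 ± 0.10 at 6 months and 1.32 ± 0.28 at 12 months in other Slc17a6 nuclei.

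Several other genes were called higher over both ages. Zfp641, a zinc finger gene, had 13.1 to 17.7 CPM in the 6 WT libraries and 20.99 to 27.0 CPM in the 6 3xTg-AD libraries (log2 fold change 0.80 ± 0.08). Sap130, a subunit of the Sin3 histone deacetylase complex, had 67.5 to 78.2 against 94.7 to 103 CPM (0.46 ± 0.06). The noncoding genes Gm12576, Gm20110, Gm47578 and Gm15594 rose by 1.93, 3.21, 2.30 and 2.07 on the log2 scale. Gm47578 and Gm15594 are antisense genes, and since the sources used here do not say whether strand was used in counting, their reads and those of the gene on the other strand cannot be told apart.

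Several of the genes that fell were close to 0 in one genotype. Serhl, which encodes a serine hydrolase (chromosome 15, 83089506 to 83116674), had 7.88, 8.55 and 10.4 CPM in 6-month WT mice and 1.30, 1.04 and 1.39 CPM in 6-month 3xTg-AD mice. At 12 months it had 9.67, 10.4 and 10.4 CPM against 1.40, 1.45 and 1.59 CPM. The genotypes did not overlap, and the log2 fold change was -2.74 ± 0.12 over both ages (adjusted p = 8.1e-10). The transcription factor gene Pax1 had 3.24 to 5.91 CPM in WT and 0.106 to 0.314 CPM in 3xTg-AD libraries. Oscar, a receptor known from bone-resorbing cells, had 3.21 to 7.49 against 0.1999 to 0.454 CPM.

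Gm17167 had 15.1 to 33.1 CPM in WT and 0.053 to 0.300 CPM in 3xTg-AD libraries (log2 fold change -7.11 ± 0.30). The chemokine gene Ccl27a, also on chromosome 4, had 9.88 to 17.0 against 1.20 to 2.65 CPM. Both lie in a region with near-identical copies, among which reads may have been split, and their values are uncertain. 4933409K07Rik, on the scaffold JH584293.1, had 1.15 to 2.04 CPM in WT libraries and 0 in 5 of 6 3xTg-AD libraries, with 0.0603 CPM in replicate 9. Gm45356, a long noncoding RNA gene, had 3.87 to 5.92 against 0.148 to 0.545 CPM.

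Cfap54, which encodes a protein of motile cilia (chromosome 10, 92775619 to 93081618), fell at both ages. It had 75.9, 82.9 and 77.5 CPM in 6-month WT mice and 29.9, 30.7 and 26.2 CPM in 6-month 3xTg-AD mice. The 12-month levels were 89.9, 117 and 118 CPM in WT mice and 20.6, 23.2 and 22.7 CPM in 3xTg-AD mice. The log2 fold change was -1.39 ± 0.09 (adjusted p = 3.5e-05) at 6 months and -2.25 ± 0.10 (adjusted p = 8.8e-07) at 12 months. The difference between the ages was itself -0.86 ± 0.14 (adjusted p = 0.048), and that call was lost in 11 of 20 alternatives.

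Among the receptors and channels of the lists, Grin2c fell. It had 71.2, 72.9 and 90.2 CPM in 6-month WT mice and 55.8, 53.7 and 56.9 CPM in 6-month 3xTg-AD mice, and 93.4, 92.2 and 95.3 CPM against 74.0, 70.8 and 68.2 CPM at 12 months. The groups did not overlap at either age, although 12-month 3xTg-AD mice were near 6-month WT mice. The log2 fold change was -0.43 ± 0.08 (adjusted p = 0.030) at 6 months, -0.36 ± 0.08 (adjusted p = 0.067) at 12 months and -0.40 ± 0.06 (adjusted p = 0.00057) over both ages. At 6 months the call was lost in 6 of 15 alternatives, one of which was members with Prkcd, the set where Grin2c is high, and the log2 fold change stayed within -0.60 to -0.30. Over both ages it was kept in all 20 alternatives, and in members with Prkcd it was -0.31 (adjusted p = 0.030).

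Grin3a, the subunit GluN3A, rose by 0.26 ± 0.06 over both ages (adjusted p = 0.037), from 170 to 217 CPM in WT to 216 to 258 CPM in 3xTg-AD libraries, which overlapped, and the call was lost in 11 of 20 alternatives. These were the called genes among 24 glutamate receptor genes, whose median log2 fold change was 0.04, and 2 of 24 stand beside the 3.22% called of all genes. The µ-opioid receptor gene Oprm1 had 82.8, 126 and 137 CPM in 6-month WT mice and 82.7, 82.3 and 75.9 CPM in 6-month 3xTg-AD mice. In the 12-month libraries it had 127, 92.7 and 103 CPM in WT mice and 78.0, 64.1 and 73.9 CPM in 3xTg-AD mice. WT replicate 3 lay just above the highest 3xTg-AD library, and the other WT libraries were higher. The log2 fold change over both ages was -0.50 ± 0.11 (adjusted p = 0.015). In members with at most 1 UMI of other lineages it was -0.29 (adjusted p = 0.285) and not called. Oprm1 was the only called gene of 31 receptors for neuromodulators and peptides, close to the share called of all genes. Slc17a8, the transporter VGLUT3, was called among 29 presynaptic genes at levels of 0.454 to 3.88 CPM, and the call was lost in 12 of 19 alternatives.

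The genes of axon guidance and adhesion had the highest median among the lists of function, at 0.16 over both ages. The median of all genes tested was -0.01. Of these 35 genes, 3 were called, all higher, beside 3.22% called of all genes. The lists were written with earlier results of these data known, so this rank is a description. Robo1, the receptor for Slit proteins, had 3067, 2994 and 2679 CPM in 6-month WT mice and 3500, 3298 and 3418 CPM in 6-month 3xTg-AD mice. At the later age it had 2679, 2858 and 2561 CPM against 3731, 3347 and 3489 CPM. The genotypes did not overlap, and the log2 fold change was 0.35 ± 0.07 over both ages (adjusted p = 0.015), with no call at 6 or at 12 months alone.

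Sema3e, a ligand of plexin-D1, had 37.5, 32.0 and 28.2 CPM in 6-month WT mice and 53.5, 53.0 and 47.3 CPM in 6-month 3xTg-AD mice. The levels at 12 months were 40.4, 19.8 and 32.7 CPM in WT mice and 58.6, 47.5 and 58.0 CPM in 3xTg-AD mice. All 3xTg-AD libraries were above all WT libraries, and the log2 fold change was 0.77 ± 0.13 over both ages (adjusted p = 0.0037). Dcc, a netrin receptor, had 665 to 940 CPM in WT and 891 to 1123 CPM in 3xTg-AD libraries (0.32 ± 0.08, adjusted p = 0.031), and the call was lost in 10 of 20 alternatives. Dcc, Grin3a and Oprm1 were lower in members with Prkcd than in those without, with log2 ratios of -1.52, -1.43 and -0.86, whereas Robo1 had 0.45. The percent of members with Prkcd, in part set by the choice, was lower in the 6-month 3xTg-AD libraries (exact permutation p = 0.1, adjusted p = 0.438). The part of that shift in these results was not tested, apart from the fit on members with Prkcd alone. There the log2 fold changes were 0.28 for Dcc (adjusted p = 0.315) and 0.23 for Grin3a (adjusted p = 0.129), close in size to those in all members but not called, and -0.74 for Oprm1 (adjusted p = 0.00082), which was called.

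**Figure D4:**
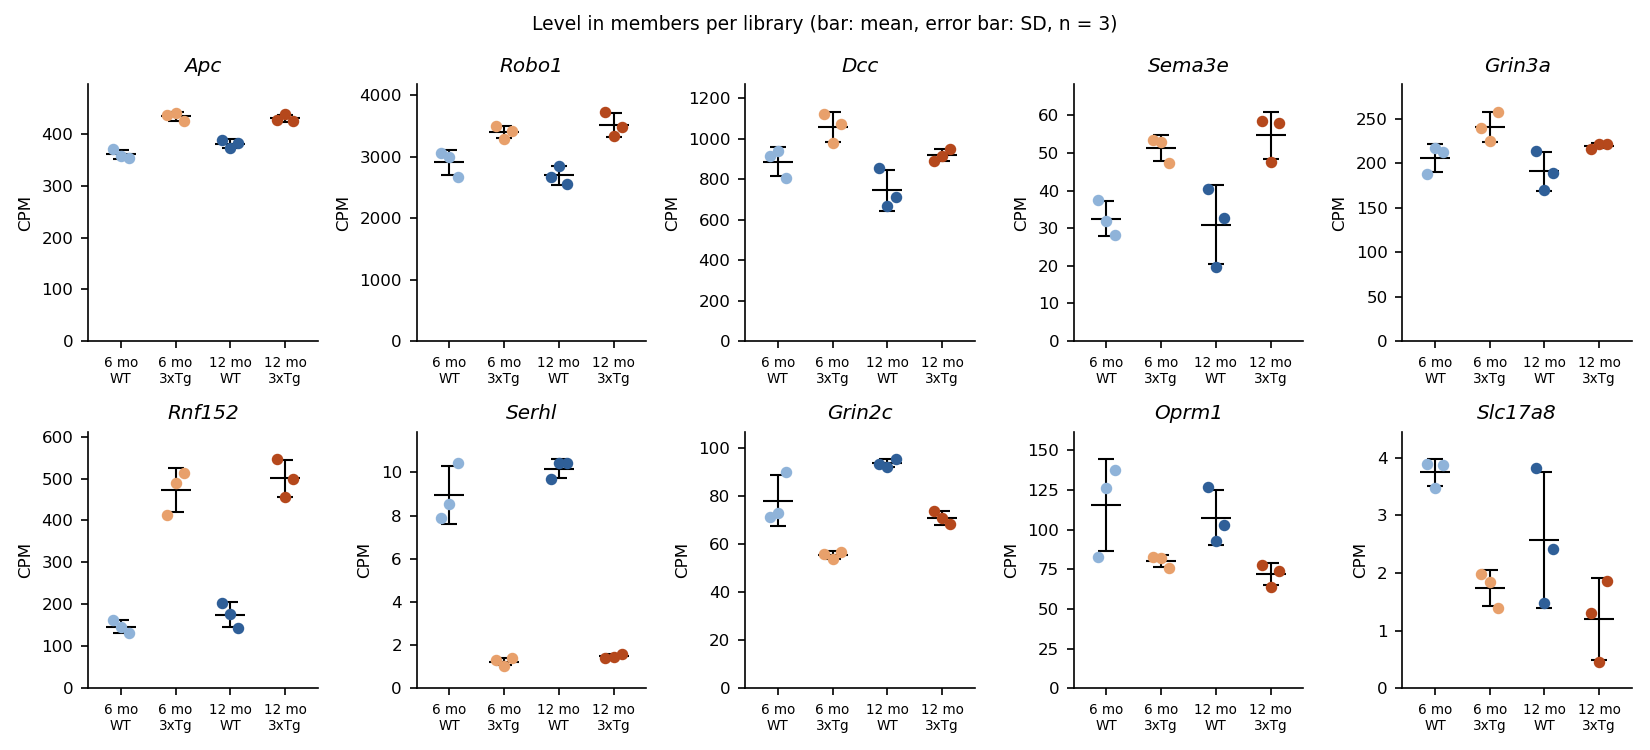
Level in CPM of 10 genes in the members, with 1 point per library, the mean as a bar and the SD as an error bar (n = 3 per group). Apc, Robo1, Sema3e and Rnf152 lie higher in every 3xTg-AD library than in every WT library and Serhl lies lower, while the genotypes overlap for Dcc, Grin3a and Grin2c when both ages are joined.

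The genes of the choice are given as a description, since it favoured their levels in every member, and none was called. Tcf7l2 had 719 to 769 CPM in 6-month WT and 723 to 775 CPM in 6-month 3xTg-AD mice, with a log2 fold change of 0.09 ± 0.07 over both ages. Slc17a6 differed by 0.07 ± 0.07, Lef1 by 0.04 ± 0.09 and Ntng1 by 0.22 ± 0.07 (adjusted p = 0.12). Prkcd had 259, 267 and 290 CPM in 6-month WT mice and 172, 191 and 225 CPM in 6-month 3xTg-AD mice, groups that did not overlap, with a log2 fold change of -0.42 ± 0.09 (adjusted p = 0.057), and it was called in 6 of 15 alternatives, one of which was DESeq2. At 12 months it had 275, 251 and 279 against 262, 287 and 251 CPM and differed by 0.03 ± 0.09.

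Of 12 thalamic transcription factors, which include Rora and Foxp2 but also Tcf7l2 and Lef1 of the choice, none was called in any genotype comparison. Their median log2 fold change over both ages, 0.06, lay between the values of Tcf7l2 and Lef1 and is not independent of the choice. Of 45 tested genes of the Wnt/β-catenin pathway, in which Tcf7l2 and Lef1 act, Apc alone was called over both ages and none at a single age, and 1 of 45 is below the 3.22% called of all genes. Apc, the scaffold that holds β-catenin for degradation, had 354 to 389 CPM in the WT and 425 to 440 CPM in the 3xTg-AD libraries (0.27 ± 0.05, adjusted p = 0.0084). Apc was also called higher over both ages in other Slc17a6 nuclei, which had no Tcf7l2 UMI. No gene was called among 17 channels of burst firing, 16 potassium channels, 18 sodium and calcium channels, 14 GABA receptors, 33 genes of oxidative phosphorylation, 13 chaperones and 17 immediate early genes tested over both ages. The median of the immediate early genes was 0.26 at 6 months and -0.30 at 12 months. Most were at low levels, and 2 of the 18 listed had at least 20 CPM in members with or without Prkcd. Their sums were 131 to 203 CPM in 3xTg-AD and 128 to 150 CPM in WT mice at 6 months, which overlapped. At 12 months they were 114 to 139 against 160 to 175 CPM. No gene of the marker lists of other cell types was called in these comparisons, and Plvap, an endothelial gene outside those lists, is given with the 12-month results.

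Of the 532 genes called over both ages, 82.0% were protein coding against 83.2% of all genes tested, 8.46% were long intergenic noncoding against 5.39%, and 6.95% were antisense against 7.45%. Chromosome 7 held 76 of its 1211 tested genes, chromosome 15 held 39 of 646 and chromosome 4 held 55 of 980, which is 6.28%, 6.04% and 5.61% against 3.22% for all chromosomes. At the single ages these shares were not all raised. Chromosome 7 had 3.89% called at 6 months and 0.93% at 12 months, chromosome 15 had 0.952% and 2.07%, and chromosome 4 had 1.96% and 1.77%, beside 1.1% and 0.965% of all genes.

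Other genes passed the threshold at 1 age, which does not show that the ages differed. Of those named here and in the next paragraphs by the age of their call, only Rdh13 passed the test of a change with age (-0.84 ± 0.13, adjusted p = 0.023), and that call was lost in 11 of 20 alternatives. Called at 6 months and over both ages were Rdh13, a retinol dehydrogenase of mitochondria, and Ifitm2, an interferon-induced membrane protein, both on chromosome 7. Rdh13 had 20.9, 18.3 and 19.4 CPM in WT mice and 44.4, 40.7 and 45.2 CPM in 3xTg-AD mice at 6 months, and 31.9, 38.1 and 38.8 against 45.3, 44.0 and 46.6 CPM at 12 months. The levels of the 3xTg-AD libraries stayed within 40.7 to 46.6 CPM, and the WT libraries were higher at 12 months. Ifitm2 had 0 to 0.169 CPM in 6-month WT and 3.05 to 3.80 CPM in 6-month 3xTg-AD mice, and the 12-month groups had 0.222 to 1.52 and 2.20 to 4.35 CPM. The groups of both genes did not overlap at 12 months either. The antisense gene Arhgap33os was at 0 in every 6-month WT library and had 2.14 to 3.08 CPM in 6-month 3xTg-AD mice. The MHC class I-like gene Mill2 was called at both ages, with log2 fold changes of 2.55 ± 0.28 and 1.17 ± 0.24.

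Called lower at 6 months were Ccdc61, a centrosomal protein, with 9.34 to 12.5 CPM in WT and 1.70 to 1.87 CPM in 3xTg-AD mice, and the noncoding genes Gm49980 and Gm31508. Gm49980 had 16.5 to 26.5 CPM in 6-month WT mice and 0.0739 to 0.180 CPM in 6-month 3xTg-AD mice. In 12-month WT mice it had 11.7, 0.148 and 3.75 CPM, so that replicate 8 lay at the 3xTg-AD level. AC149090.1, on the scaffold JH584304.1, had 639 to 974 against 131 to 200 CPM at 6 months, and 278 to 823 against 449 to 790 CPM at 12 months.

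Called at 12 months and over both ages was St3gal4, a sialyltransferase, whose change with age was not called (1.44, adjusted p = 0.107). It had 62.2, 87.5 and 55.3 CPM in 6-month WT mice, 75.0, 95.2 and 104 CPM in 6-month 3xTg-AD mice, 16.8, 29.5 and 31.2 CPM in 12-month WT mice and 90.8, 97.9 and 91.4 CPM in 12-month 3xTg-AD mice. The 12-month WT libraries were the low ones, and the log2 fold change at 12 months was 1.91 ± 0.16 (adjusted p = 0.00012). Gmip, a GTPase-activating protein, and Plvap, a protein of endothelial diaphragms, were called at 12 months and not over both ages. Gmip had 7.69 to 8.29 CPM in 12-month WT libraries and 11.1 to 25.4 CPM in all others. Plvap had 5.91 to 6.48 CPM in 12-month WT libraries and 6.47 to 16.8 CPM in all others, which overlapped by a small margin, and its call was lost in members with at most 1 UMI of other lineages (adjusted p = 0.054). The zinc finger gene Zfp846 had 13.2 to 20.4 CPM in 12-month WT and 35.5 to 43.8 CPM in 12-month 3xTg-AD mice, and Gm4651 had 1.94 to 2.72 and 6.70 to 8.33 CPM. Both were also called over both ages.

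Lower at 12 months were the neighbours Thsd4, which encodes a protein of the extracellular matrix (chromosome 9, 59966931 to 60522046), and the noncoding 9230112J17Rik (60523967 to 60545882). The noncoding gene had 8.99, 10.5 and 8.78 CPM in WT and 0.3999, 0.363 and 0.371 CPM in 3xTg-AD mice at 12 months. At 6 months it had 7.66, 9.97 and 0.108 CPM in WT and 8.17, 8.06 and 0.543 CPM in 3xTg-AD mice, so that 1 library of each genotype, WT replicate 11 and 3xTg-AD replicate 9, was near 0. Thsd4 had 82.2, 86.2 and 32.0 CPM in WT and 72.3, 71.9 and 32.0 CPM in 3xTg-AD mice at 6 months, with the same libraries low, and 61.1 to 86.5 against 22.0 to 27.5 CPM at 12 months. The log2 fold changes at 12 months were -4.58 ± 0.27 and -1.50 ± 0.15. Gm35256 was near 0 in all but 4 libraries, with 9.96 CPM in 6-month WT replicate 3 and 9.87 to 12.0 CPM in 12-month WT mice.

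**Figure D5:**
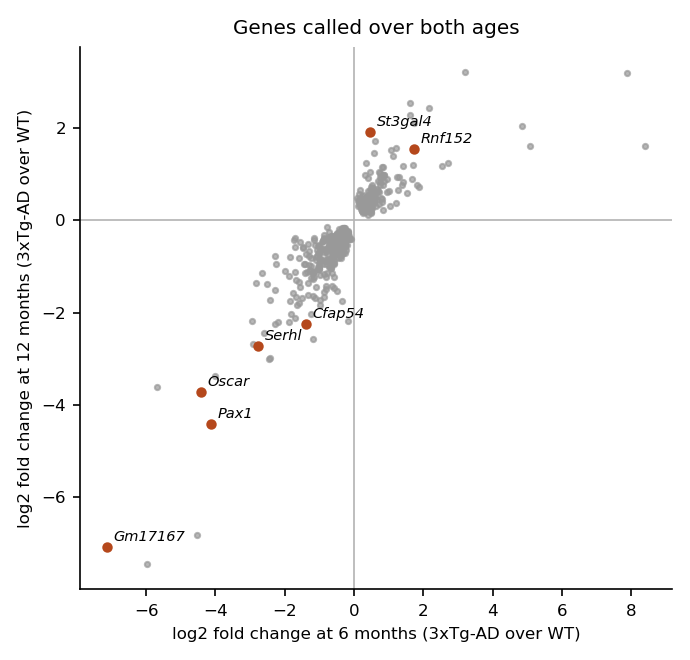
Log2 fold change of 3xTg-AD over WT at 12 months against that at 6 months, with 1 point for each of the 496 genes called over both ages and tested at each age. All points have the same sign at both ages, which the call over both ages favours, and the named genes include St3gal4, further from 0 at 12 months, and Rnf152, Serhl and Pax1, close to equal at both ages.

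Age was compared within each genotype. In WT mice, 7 genes were higher and 2 lower at 12 than at 6 months, which is 0.0553% of 16261 genes tested. At an unadjusted p under 0.05 there were 1090. The phospholipase gene Plce1 had 35.1, 24.7 and 38.0 CPM at 6 months and 10.8, 13.3 and 14.6 CPM at 12 months, a log2 fold change of -1.32 ± 0.16 (adjusted p = 0.016). Gm2762 had 6.42, 6.17 and 3.98 CPM at 6 months and 32.5, 17.2 and 34.7 CPM at 12 months, and Rdh13 rose by 0.90 ± 0.11. The other called genes were Gm35019, Gm3417, Prss41, 9030025P20Rik and C030047K22Rik, which rose, and Gm15169, which fell. Gm3417 and 9030025P20Rik overlap on opposite strands, and their values are uncertain. Without 6-month WT replicate 11 none was called, without 6-month WT replicates 3 and 7 there were 22 and 5, and without 12-month WT replicate 4 there were 46.

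In 3xTg-AD mice, 9 genes were higher and 7 lower at 12 months, which is 0.0997% of 16053. The adhesion receptor gene Adgrf4 had 1.75, 1.63 and 2.89 CPM at 6 months and 7.40, 8.36 and 8.38 CPM at 12 months. Adamts19, a metalloprotease, had 66.1, 79.9 and 67.0 CPM at 6 months and 118, 139 and 117 CPM at 12 months (0.81 ± 0.09, adjusted p = 0.0042). WT mice had 103 to 146 CPM of Adamts19 at 6 months and 126 to 188 CPM at 12 months, and 6-month 3xTg-AD mice were the low group. The lipid transporter genes Abca6 and Abca9, neighbours on chromosome 11, rose by 1.34 ± 0.19 and 1.17 ± 0.19.

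Lower at 12 months in 3xTg-AD mice were Plxdc1, Cep112, Fbxl7, Fstl5, Ldb2 and Rasgrf2, the last a Ras exchange factor, with log2 fold changes of -1.38 to -0.39, and the antisense gene A830036E02Rik. The last had 14.8 to 16.8 CPM at 6 months and 0.212 to 0.300 CPM at 12 months, and in 12-month WT mice 0.157, 0.666 and 21.5 CPM, so that replicate 12 differed from the other 2. Without 12-month 3xTg-AD replicate 6 there were 54 calls, and without 12-month 3xTg-AD replicate 2 or 6-month 3xTg-AD replicates 5 or 9 there were 6, 7 or 10. When all 12 libraries shared 1 fit, 1 gene was called in 3xTg-AD mice and 41 in WT mice. No gene of the lists was called for age in either genotype.

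The difference between genotypes was tested for a change with age. It differed in 6 genes, 2 with a positive and 4 with a negative change, which is 0.0358% of 16778. These were Cfap54 and Rdh13, given above, Prss41, Pdzd7, Zfp943 and Gm15169. Of 20 alternatives, the call of Pdzd7 was lost in 13, that of Gm15169 in 7, and those of Prss41 and Zfp943 in 1 each. Zfp943, a zinc finger gene, had 26.9 to 34.4 CPM in 6-month WT and 12.3 to 14.4 CPM in 6-month 3xTg-AD mice, but 13.8 to 19.0 against 20.05 to 27.5 CPM at 12 months. Pdzd7, a scaffold of hair cell stereocilia, had 4.78 to 6.73 against 9.83 to 12.1 CPM at 6 months and 11.3 to 13.8 against 9.50 to 11.5 CPM at 12 months. Without 6-month 3xTg-AD replicates 1, 5 and 9 there were 2, 1 and 3 such genes, and without 12-month 3xTg-AD replicates 2, 6 and 10 there were 3, 2 and 2. Without 6-month WT replicate 11 there were 3, and without 12-month WT replicate 8 there were 11.

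The genotype difference was also compared between members and other Slc17a6 nuclei of the same libraries. At 6 months 1 gene differed, 0.00587% of 17031, and 892 did at an unadjusted p under 0.05. This gene was Rgs4, which speeds the turning off of G protein signals. It had 34.5, 31.7 and 30.4 CPM in members of 6-month WT mice and 17.9, 16.4 and 12.5 CPM in 6-month 3xTg-AD mice, groups that lay far apart. The log2 fold change was -0.99 ± 0.14 in members (adjusted p = 0.0050) and 0.62 ± 0.15 in other Slc17a6 nuclei (adjusted p = 0.13), and the difference of members from other nuclei was -1.63 ± 0.17 on the log2 scale (adjusted p = 0.0042). No gene was called without 6-month WT replicate 3, and 2 were without 6-month 3xTg-AD replicate 1. At 12 months members had 26.3, 33.5 and 21.6 CPM in WT and 21.4, 15.6 and 15.3 CPM in 3xTg-AD mice, which did not overlap, and the log2 fold change was -0.61 ± 0.19 (adjusted p = 0.20).

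At 12 months 9 genes differed, 0.0528% of 17061, with 3 of them more positive in members and 6 more negative. Unc13b, which encodes the vesicle priming protein Munc13-2, had 151, 139 and 143 CPM in 6-month WT and 96.0, 97.0 and 80.3 CPM in 6-month 3xTg-AD mice. The 12-month levels were 133, 150 and 117 CPM against 76.6, 75.9 and 77.5 CPM. The genotypes did not overlap, the log2 fold change in members over both ages was -0.69 ± 0.08 (adjusted p = 5.4e-05), and at 12 months the difference from the change in other Slc17a6 nuclei was -0.86 ± 0.13 (adjusted p = 0.048). The latter call was lost in 6 of 12 alternatives, one of which was RLE in place of TMM scaling.

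Trhde, the enzyme that degrades thyrotropin-releasing hormone, had 68.4 to 89.6 CPM in WT and 107 to 128 CPM in 3xTg-AD members over both ages, which did not overlap, and its change at 12 months was 0.97 ± 0.11 above that in other nuclei. Cfap54 fell in both classes, with -2.25 ± 0.10 in members and -1.38 ± 0.11 in other Slc17a6 nuclei at 12 months. Cpne4 had 509 to 539 CPM in WT and 376 to 440 CPM in 3xTg-AD members at 12 months. For Cpne4, Dpp4, Sbspon, Abi3bp, Tox3 and Adamts9 the members themselves were not called at 12 months. Dpp4 had a log2 fold change of -0.27 ± 0.21 in members and -2.65 ± 0.29 in other Slc17a6 nuclei. Without 12-month 3xTg-AD replicate 2 none of the 9 was called, without replicate 6 there were 5 genes, and without replicate 10 there were 93. Without 12-month WT replicates 4, 8 or 12, the calls kept were 6, 3 or 4 of the 9. With RLE scaling 6 of the 9 were kept, and the calls of Tox3 and Adamts9 were each lost in 6 of 12 alternatives.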

How the data were processed

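Nuclei of 12 libraries were aligned by the authors to GRCm38/mm10 with Cell Ranger 6.1.1. The authors deposited filtered raw UMI counts per gene and nucleus, from before their soupX removal of ambient RNA. The members and gene lists were chosen with earlier results of these data known. Counts were summed over members per library and tested with edgeR 4.0.16 (TMM scaling, filterByExpr, quasi-likelihood F test) in R 4.3.3, with DESeq2 1.42.0 as an alternative, and p-values were adjusted by Benjamini-Hochberg over all genes tested. CPM were a gene's UMIs over all UMIs of the members of that library. Ratios between sets of nuclei used CPM with a pseudocount of 1. Shares were tested by exact permutation of the libraries, two-sided. Members and other Slc17a6 nuclei were fitted together with each library as a block. Groups came from the labels. A further allele of the 3xTg-AD line and a few genes are not reported here. Positions were taken from GENCODE vM21 on GRCm38. Named genes were up to 8 per direction and comparison by adjusted p among called genes whose groups did not overlap or, for sets of nuclei, by median ratio, plus called genes of the lists, and genes named otherwise were chosen after their values were seen. The fits were tested on simulated counts. Total UMIs were 79177051 to 128323908 per library.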

Additional observations from a re-analysis of the deposited data

Results flagged for a closer look

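The difference between genotypes changed between 6 and 12 months in 6 genes by the test of the interaction in edgeR. The change in log2 fold change was -0.84 for Rdh13, -0.86 for Cfap54, -1.25 for Pdzd7 and -4.68 for Prss41, which were more positive at 6 months. It was 1.63 for Zfp943 and 4.23 for Gm15169. Gm15169 is an antisense gene and was called in opposite directions at the 2 ages. Prss41 had 0.237 to 0.645 CPM in 6-month WT members and 3.25 to 4.10 CPM in 6-month 3xTg-AD members, but 2.56 to 3.997 against 0.363 to 1.90 CPM at 12 months.

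The genotype difference in members differed from that in other Slc17a6 nuclei in 1 gene at 6 months, Rgs4, at -1.63. At 12 months it differed by 1.90 for Sbspon, 2.37 for Dpp4, 0.97 for Trhde, -0.86 for Unc13b, -1.02 for Adamts9, -0.68 for Tox3, -0.84 for Cpne4, -0.85 for Cfap54 and -2.28 for Abi3bp. The difference itself was tested in each case.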

How the results depend on the processing

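No paired analysis of genotype or age was possible because the groups share no replicate numbers. Of the values of the comparisons, 442 stayed on their side of the threshold, or moved within 1.5 times or 1 SD, 58 moved, 1 passed the threshold and 14 no longer did. No value past its threshold changed sign, but differences short of it did. Without 1 library, the difference in the share of all nuclei between the ages ran from -0.701 to 0.541 points, and that in median UMIs between genotypes at 6 months from -1662 to 642. Of the named genes' values, 1981 kept their call, 239 lost it, 14 gained it and no called one changed sign.

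Without a filter on low counts, the calls were 480 at 6 months, 607 at 12 months, 830 over both ages, 109 for age in WT, 305 for age in 3xTg-AD, 67 for the interaction, and 149 and 336 for the comparison with other Slc17a6 nuclei at 6 and 12 months. With DESeq2 they were 279 and 267 at the 2 ages, 55 and 74 for age in WT and 3xTg-AD, and 38 for the interaction. In members with at most 1 UMI of other lineages, 37.2% of members, they were 75 at 12 months, 268 over both ages, 72 for age in 3xTg-AD, 12 for the interaction and 22 at 12 months against other nuclei. In members with Prkcd they were 341 over both ages and 10 for age in 3xTg-AD. A joint fit of all libraries gave 41 for age in WT and 1 in 3xTg-AD, members of up to 2 times the median UMIs gave 6 for the latter, members with at least 3 Tcf7l2 UMIs gave 3 for the interaction, and thinned counts gave 2 against other nuclei at 6 months. The cause was not tested.

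Leaving out 1 library gave 100 to 229 calls at 6 months, 43 to 605 at 12 months, 346 to 693 over both ages, 0 to 46 for age in WT, 6 to 54 in 3xTg-AD, 1 to 11 for the interaction, and 0 to 2 and 0 to 93 against other nuclei. With nuclei thinned to 2000 UMIs, the genotype difference at 12 months was -0.575 points of all nuclei and -0.615 points of Slc17a6 nuclei, over the nuclei of at least that depth. The change of the latter with age was -7.87 points in all libraries (exact permutation p = 0.035, adjusted p = 0.306), -1.52 points thinned (exact permutation p = 0.5), -7.22 points with at least 3 Tcf7l2 UMIs (exact permutation p = 0.065) and -9.97 to -4.69 points without 1 library, with exact permutation p of 0.06 to 0.095 without 3xTg-AD replicate 1, WT replicate 7 or WT replicate 11 of 6 months, or WT replicate 4, 8 or 12 of 12 months. The change in the share of all nuclei was -5.99 to -3.69 points without 1 library, with exact permutation p of 0.05 to 0.07 without 3xTg-AD replicate 1, WT replicate 7 or WT replicate 11 of 6 months, or 3xTg-AD replicate 2, WT replicate 4 or WT replicate 12 of 12 months. Thinned, the percent with Prkcd differed by -3.96 points over both ages, and the percent with Tnnt1 by -0.626 points at 6 and -0.970 points at 12 months. The choice made anew on thinned counts gave 2816 nuclei, against 14949 members before thinning. The thinned percents with Prkcd and Tnnt1 were instead taken over the members chosen before thinning, without the 29 below 2000 UMIs.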
